A study of Homo sapiens with 12 samples.

Results

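The EGR, IER and KLF immediate early genes were followed as 9 named genes of the 22379 in the table: EGR1, EGR2, EGR3, IER2, IER3, IER5, KLF4, KLF6 and KLF10. They form a list of names with no threshold on a measured value, drawn up with earlier results of these data known, and each symbol was matched to 1 row by its Ensembl gene ID. All 9 had a row. Of these, 5 reached a mean of at least 10 normalised counts over the 6 libraries without triptolide and were tested, and 4 (EGR2, EGR3, KLF4 and IER3) lay under that mean.

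Polyadenylated RNA was sequenced from U2OS, a human osteosarcoma cell line, in 12 libraries that form 6 groups of 2 replicates. NONT cells received a nontargeting guide RNA, NUP93-KO cells a guide against NUP93, a protein of the nuclear pore, and EXOSC5-KO cells a guide against EXOSC5, a core subunit of the RNA exosome, which degrades RNA from its 3′ end. Each genotype was kept for 8 h in DMSO (called untreated here, as in the sample titles) or in 1 µM triptolide, an inhibitor of the XPB helicase of TFIIH that blocks initiation by RNA polymerase II. The comparisons ask how far these transcripts fall when their synthesis is blocked, and whether the loss differs in cells in which a mediator of mRNA homeostasis was targeted. Cas9 and the guide RNA had been delivered to all cells, NONT included, on one transiently transfected plasmid, and the knockouts are pooled populations selected with puromycin, not clones. Cells were detached with trypsin and counted before lysis.

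Immediate early genes are transcribed within minutes of a growth factor or stress signal, without new protein synthesis, because the factors that switch them on are already bound or waiting in the cell. The best known route runs through MAP kinases to SRF and its partners at CArG boxes, and to CREB at cyclic AMP response elements. Their mRNAs are short-lived as a class, many through AU-rich elements (runs of ATTTA in the 3′UTR), so that the signal also ends quickly. EGR1, EGR2 and EGR3 are zinc finger transcription factors of the early growth response family. KLF4, KLF6 and KLF10 are Krüppel-like zinc finger factors, KLF10 being known as a gene induced by TGF-β. IER2, IER3 and IER5 are small proteins named only for their rapid induction, and IER3 is also known as a regulator of survival signalling.

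Sequence features that bear on induction and decay differed among the members. The stretches below are the 150 bases that end just before a RefSeq start site (GRCh38.p14), and they are shown because they hold the letters by which EGR1 and EGR2 differ from IER2, KLF6 and IER5. Capitals mark CArG boxes in EGR1 (chr5:138465329-138465478, plus strand) and EGR2 (1 of its 3 start sites, chr10:62816367-62816516, minus strand). They mark GGGCGG, the GC box bound by SP and KLF factors, on either strand in IER2 (chr19:13150261-13150410, plus strand), and GGGCGG with the overlapping GCGGGGGCG, the EGR motif, in KLF6 (chr10:3785210-3785359, minus strand). IER5 (chr1:181088550-181088699, plus strand) held no exact match to the motifs searched. The TATA box was searched only as TATAAA, so the tatataa near the end of the IER5 stretch was not counted.
EGR1: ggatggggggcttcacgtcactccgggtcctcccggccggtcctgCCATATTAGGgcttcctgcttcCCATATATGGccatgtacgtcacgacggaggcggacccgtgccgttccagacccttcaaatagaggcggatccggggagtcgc
EGR2: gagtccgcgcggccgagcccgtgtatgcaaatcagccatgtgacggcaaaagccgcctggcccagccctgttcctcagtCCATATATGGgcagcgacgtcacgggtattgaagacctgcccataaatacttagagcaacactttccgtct
IER2: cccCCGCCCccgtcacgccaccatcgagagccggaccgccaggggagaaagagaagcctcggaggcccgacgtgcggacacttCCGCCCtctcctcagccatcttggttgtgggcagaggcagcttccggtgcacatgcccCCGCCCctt
KLF6: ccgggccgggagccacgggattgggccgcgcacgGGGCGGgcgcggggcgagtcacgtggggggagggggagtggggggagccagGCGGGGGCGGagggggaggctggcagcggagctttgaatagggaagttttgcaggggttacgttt
IER5: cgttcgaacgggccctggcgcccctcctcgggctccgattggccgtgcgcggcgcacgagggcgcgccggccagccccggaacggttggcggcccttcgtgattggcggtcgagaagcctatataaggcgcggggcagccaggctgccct

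The motifs were searched on both strands of the full RefSeq window, 300 bases running from 250 before to 50 after the start site. They were the CArG box by its name alone, the TATA box as TATAAA, the GC box as GGGCGG, the core of the cyclic AMP response element as TGACG and the EGR motif as GCGGGGGCG, which can overlap a GC box. Of the 9 genes, 6 had an entry, and EGR3, IER3 and KLF10 had none. The 2 CArG boxes of EGR1 begin 105 and 83 bases before the start site, and the 1 of EGR2 begins 71 bases before it. A CArG box was present in 1.29% of 35116 such windows, against 45.0% for GGGCGG, 24.6% for TGACG, 11.5% for TATAAA and 5.07% for GCGGGGGCG. TGACG was found 2 times each in EGR1, in the same window of EGR2 and in KLF4, and 1 time in IER2, while GGGCGG was found 4 times each in IER2, in KLF4 and in another EGR2 window. These are matches of letters, not shown to be sites.

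The 3′UTRs held very different numbers of ATTTA, the core of an AU-rich element. In the canonical transcripts of GENCODE release 44, IER5 had 10 in 3014 bases, KLF6 6 in 3543, IER3 6 in 737, EGR3 and KLF10 3 each, EGR2 and KLF4 2 each, EGR1 1 in 1222 and IER2 0 in 1053. Over 12933 tested genes with an annotated 3′UTR the median was 2 per gene, or 1.75 per kilobase. Per kilobase, IER3 stood at 8.14, IER5 at 3.32 and KLF6 at 1.69, with 1.7%, 23.5% and 50.9% of tested genes at or above these. The other members lay between 0 and 2.23, so by density KLF6 is near the typical gene. The richest 30 bases of IER5 and KLF6, with 4 and 2 copies, are shown with ATTTA in capitals. They lie in exon 1 of IER5 (chr1:181092442-181092471, plus strand) and in exon 4 of KLF6 (chr10:3778793-3778822, minus strand).
IER5: ggtgtcttcctttATTTATTTATTTATTTA
KLF6: gtgtATTTAcaaatataacacaacaATTTA
In NONT, IER5, KLF10, EGR1 and IER2, with 10, 3, 1 and 0 ATTTA, each lost over 99% of their signal. KLF6, with 6, kept 1.54%, as given below. A link between ATTTA and the loss was not tested.

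All values below are spike-in normalised counts: the authors' gene counts divided by size factors from ERCC RNAs that were added in proportion to cell number, so that the scale is meant to follow mRNA per cell. Libraries had an approximate depth of 8.54 to 11.9 M reads, and 1 read of a typical gene was worth about 0.488 to 1.75 normalised counts, so a value of a few normalised counts rests on a few reads. NUP93 was 1395 and 1432 in untreated NUP93-KO against 1753 and 2489 in untreated NONT, and EXOSC5 was 215.9 and 147.7 in untreated EXOSC5-KO against 299 and 481, with limma adjusted p = 0.926 and 0.151. Under triptolide the NUP93 values of NUP93-KO and NONT overlapped, at 801 and 1019 against 1007 and 899 (log2 fold change −0.07 ± 0.20, SE, limma adjusted p = 0.767), while EXOSC5 was lower in EXOSC5-KO, at 75.2 and 101.5 against 266 and 208 (−1.42 ± 0.29, adjusted p = 0.00302). The genotype names are therefore those of the labels, and for NUP93-KO the mRNA gives no check under triptolide. Of 8 mesenchymal and bone markers, 7 were above 0 in all 12 libraries, COL1A1, SPARC and VIM at 7368 or above, CDH11 at 181 to 486, ALPL at 53.1 to 246, RUNX2 at 9.56 to 404 and COL1A2 at only 4.05 to 42.0, while TWIST1 was listed at 0 in all 12. Among markers of other cell types, the epithelial EPCAM (16.8 to 47.6) and CDH1 (13.5 to 69.7) were above 0 in every library, and the leukocyte PTPRC and endothelial PECAM1 reached at most 4.70 and 9.99. In untreated NONT the second library lay above the first for the typical gene, by 0.51 on the log2 scale. A change in bulk RNA does not tell fewer expressing cells from less mRNA in each cell.

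In untreated cells the tested members were abundant in all 3 genotypes. Per kilobase of the canonical transcript, IER2 was highest, with a mean of 677 normalised counts over the 6 untreated libraries (518 to 859), followed by KLF10 at 436 (355 to 519.7), IER5 at 358 (299 to 447), EGR1 at 249.7 (146 to 327) and KLF6 at 102 (83.3 to 136). Neighbours in this order overlapped in their ranges except EGR1 and KLF6. EGR2 had a mean of 7.69 normalised counts, EGR3 of 6.23 and KLF4 of 1.38, not divided by length, so of the EGR family EGR1 was the member detected at a level that could be tested.

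**Figure D1:**
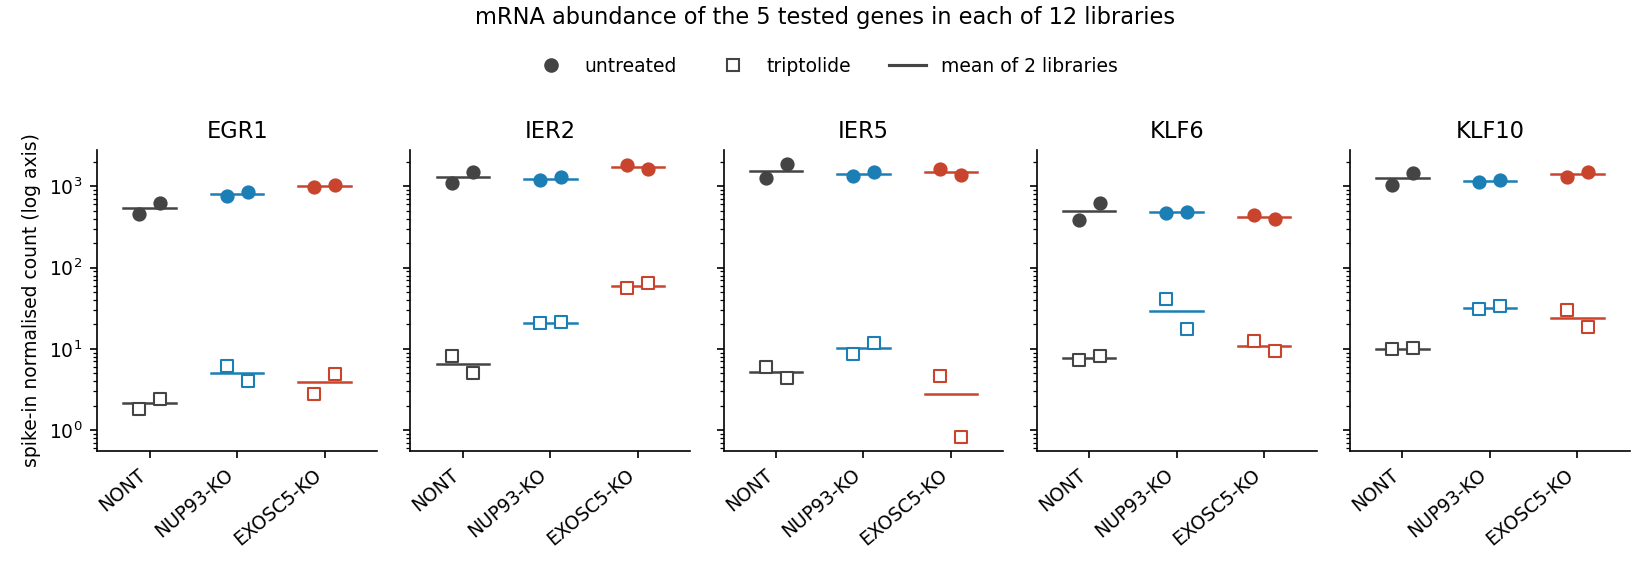
Spike-in normalised counts of EGR1, IER2, IER5, KLF6 and KLF10 (log axis) in each library, by genotype; filled circles are untreated, open squares are triptolide, and each line is the mean of 2 libraries. Untreated libraries sit at 382 or above and treated ones at 64.0 or below, and treated IER2 separates the genotypes, from 5.07 and 8.11 in NONT to 55.7 and 64.0 in EXOSC5-KO.

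EGR1 (ENSG00000120738, chromosome 5, 138465479 to 138469303, plus strand, 2 exons), the best studied early growth response factor, was among the transcripts with least left. It was 458 and 627 normalised counts in untreated NONT and 1.81 and 2.45 after triptolide. In NUP93-KO the untreated libraries held 765 and 842 and the treated ones 6.12 and 3.99. Those of EXOSC5-KO held 981 and 1027 untreated and 2.81 and 4.94 treated. No treated library came near an untreated one. For EGR1 in NONT, NUP93-KO and EXOSC5-KO the log2 fold changes, on log2(value + 1), were −7.43, −7.08 and −7.72, each with an SE of 0.38 (limma adjusted p = 1.16e-10, 1.26e-09 and 4.05e-10).

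IER2 (ENSG00000160888, chromosome 19, 13150411 to 13154911, plus strand, 2 exons) showed the widest spread of fold changes among genotypes. It was 1093 and 1504 in untreated NONT and 8.11 and 5.07 after triptolide. In NUP93-KO it was 1208 and 1293 without and 20.8 and 21.4 with the drug. In EXOSC5-KO it was 1813 and 1656 without and 55.7 and 64.0 with the drug. The treated libraries of the 3 genotypes did not overlap, with EXOSC5-KO highest and NONT lowest. For IER2 in NONT, NUP93-KO and EXOSC5-KO the log2 fold changes were −7.43, −5.82 and −4.84, each with an SE of 0.28 (limma adjusted p = 8.86e-12, 6.26e-10 and 1.05e-09).

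IER5 (ENSG00000162783, chromosome 1, 181088700 to 181092900, plus strand, a single exon) had the largest fall of the members in NONT and EXOSC5-KO. In NONT it dropped from 1255 and 1879.9 to 6.02 and 4.41. In NUP93-KO its values were 1348 and 1493 before and 8.74 and 11.97 after the drug. In EXOSC5-KO they were 1659 and 1386 before and 4.68 and 0.823 after, the last about the worth of 1 read. Treated IER5 libraries of EXOSC5-KO and NONT overlapped, and both of NUP93-KO lay above them. For IER5 in NONT, NUP93-KO and EXOSC5-KO the log2 fold changes were −7.96, −6.98 and −8.88, each with an SE of 0.43 (limma adjusted p = 1.73e-10, 2.94e-09 and 4.05e-10).

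KLF6 (ENSG00000067082, chromosome 10, 3775996 to 3785281, minus strand, 4 exons), a growth-restraining Krüppel-like factor, fell least in NONT and NUP93-KO. It was 382 and 622 in untreated NONT and 7.30 and 8.14 after triptolide. The NUP93-KO libraries held 475 and 480.1 untreated and 41.1 and 17.4 treated. For EXOSC5-KO the values were 449 and 398 untreated and 12.4 and 9.44 treated. Both treated NUP93-KO libraries lay above all other treated ones, but they differed from each other by more than any other treated KLF6 pair. For KLF6 in NONT, NUP93-KO and EXOSC5-KO the log2 fold changes were −5.81, −4.11 and −5.16, each with an SE of 0.39 (limma adjusted p = 1.72e-09, 2.2e-07 and 1.74e-08).

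KLF10 (ENSG00000155090, chromosome 8, 102648784 to 102655725, minus strand, 4 exons) was 1035 and 1469 in untreated NONT and 9.93 and 10.2 after triptolide. The same values were 1119 and 1199, then 30.6 and 33.6, for NUP93-KO. EXOSC5-KO libraries held 1292 and 1515 untreated and 29.9 and 18.7 treated. The treated libraries of both knockouts lay above those of NONT. For KLF10 in NONT, NUP93-KO and EXOSC5-KO the log2 fold changes were −6.80, −5.13 and −5.83, each with an SE of 0.29 (limma adjusted p = 2.68e-11, 1.65e-09 and 4.05e-10).

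All 5 tested members fell after triptolide in each genotype. The drug lowered most of the transcriptome, so the same call was made for 90.0%, 55.1% and 64.3% of all 13811 genes tested in NONT, NUP93-KO and EXOSC5-KO, and the call alone does not separate the members from other genes. The median log2 fold changes of the 5 members, in the same order of genotypes, were −7.43, −5.82 and −5.83, against −1.62, −0.92 and −1.08 over all genes tested. The members thus differed from the all-gene median by −5.81, −4.90 and −4.75, a distance that a rescaling of whole libraries leaves in place by construction, apart from the pseudocount. The fold changes themselves depend on the scale: rescaling by median of ratios, to the same total or to the same sum of mitochondrially encoded mRNAs moved the all-gene median in NONT from −1.62 to −0.02, −0.32 and −1.28. Median of ratios sets the typical gene near 0 by construction, and equal totals take out part of a shared fall. Neither therefore measures the size of that fall, and the paper holds that absolute mRNA levels need spike-ins.

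**Figure D2:**
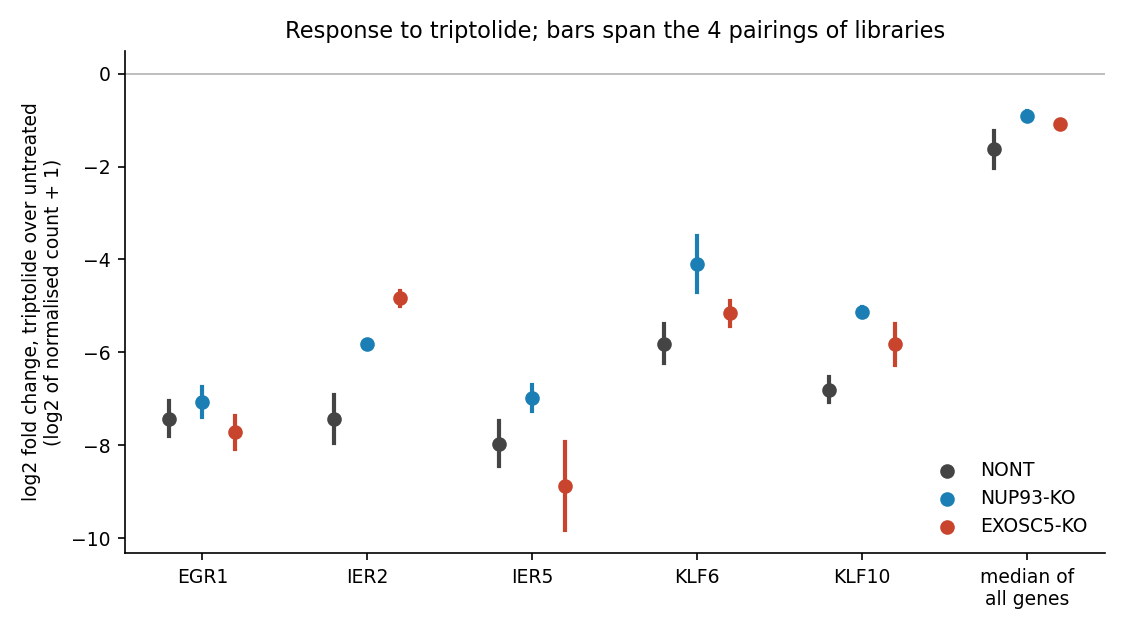
Log2 fold change after triptolide of each tested member and of the median gene, by genotype; points are the fitted values (for the last column, the median over 13811 genes) and bars span the 4 ways to set 1 treated against 1 untreated library. Every member lies at −3.50 or below in every such pair, whereas the median gene lies between −2.03 and −0.81.

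Ranked among all 13811 genes by the size of the fall, the members stood in the lower tail. The rank depends on the measure, since the pseudocount limits the fold change of less abundant genes and so favours abundant ones such as these. In NONT, 17 genes had a lower log2 fold change than IER5, 35 than EGR1, 36 than IER2, 94 than KLF10 and 296 than KLF6, whereas 162, 173, 198, 286 and 470 genes of 13799 had a smaller share of their untreated mean left. In NUP93-KO the fold change placed 10 genes below EGR1, 12 below IER5, 70 below IER2, 200 below KLF10 and 631 below KLF6, and the share left placed 107, 114, 198, 330 and 808 of 13800. In EXOSC5-KO no gene had a lower fold change than IER5, whose lower treated value is about 1 read, but 75 of 13803 had a smaller share left. There 10 genes lay below EGR1, 120 below KLF10, 237 below KLF6 and 334 below IER2 by fold change, and 84, 221, 327 and 443 by share left. By both measures IER2 had the smallest fall of the 5 in EXOSC5-KO but not in NONT or NUP93-KO.

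**Figure D3:**
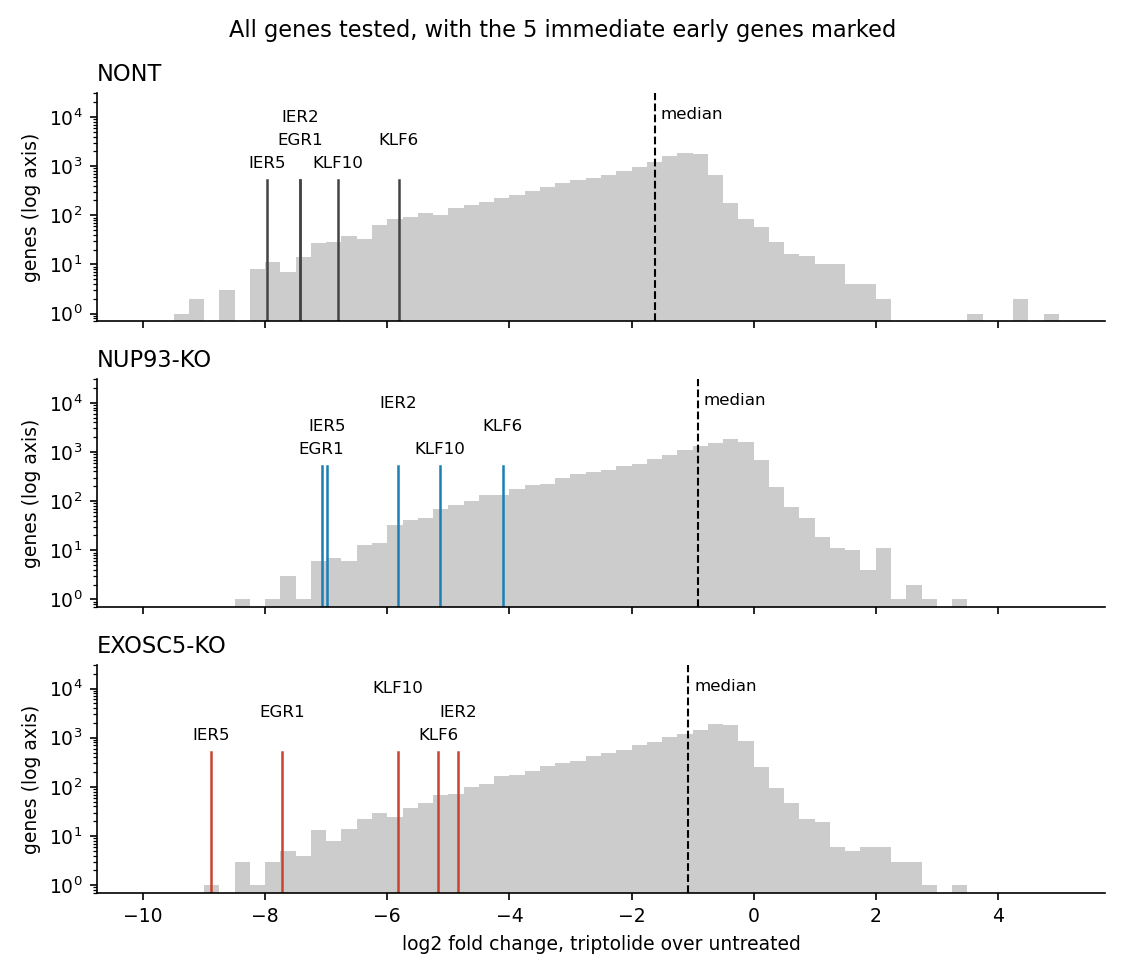
Histograms of the log2 fold change after triptolide of all 13811 genes tested (y axis: number of genes, log scale) in each genotype, with the 5 members as coloured lines and the all-gene median dashed. All members lie in the lower tail; IER2 moves from −7.43 in NONT to −4.84 in EXOSC5-KO, while IER5 is at the lower end in EXOSC5-KO, at −8.88.

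Expressed as the share of the untreated mean left after 8 h, IER5 kept 0.333% in NONT, EGR1 0.392%, IER2 0.507%, KLF10 0.803% and KLF6 1.54%, whereas the median gene kept 31.4%. In NUP93-KO the shares were 0.629% for EGR1, 0.729% for IER5, 1.69% for IER2, 2.77% for KLF10 and 6.12% for KLF6, with 52.5% for the median gene. In EXOSC5-KO they were 0.181% for IER5, 0.386% for EGR1, 1.73% for KLF10, 2.58% for KLF6 and 3.45% for IER2, with 47.2% for the median gene. Over the 4 pairings of libraries, the only neighbours in these orders that did not overlap were KLF10 and KLF6 in NONT, EGR1 and KLF10 in EXOSC5-KO and, in NUP93-KO, IER5 and IER2, IER2 and KLF10, and KLF10 and KLF6.

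Without drug, no member passed the test between genotypes. In limma, 0 of 5 passed in NUP93-KO against NONT, where 0.0217% of all genes did, and 0 of 5 in EXOSC5-KO against NONT, where 0.521% did. At an unadjusted p under 0.05 the counts were 0 and 1. That 1 was EGR1, whose untreated means in NONT, NUP93-KO and EXOSC5-KO were 543, 804 and 1004, and both libraries of each knockout lay above both of NONT. The log2 fold change of EGR1 in EXOSC5-KO was 0.90 ± 0.38 (SE; 95% interval 0.10 to 1.71, limma unadjusted p = 0.0293, adjusted p = 0.502). In NUP93-KO it was 0.58 ± 0.38 (interval −0.22 to 1.38, limma adjusted p = 1). For the other 4 members the log2 fold changes lay between −0.21 and 0.43.

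Under triptolide, 3 of 5 members were higher in NUP93-KO than in NONT, a difference that 42.1% of all genes showed in either direction and that was 0.66 for the median gene. IER2 was 3.20-fold higher as a ratio of means, with a log2 fold change of 1.57 ± 0.28 (SE, limma adjusted p = 0.00217). KLF10 was 3.19-fold higher, at 1.58 ± 0.29 (adjusted p = 0.00248), and KLF6 3.79-fold, at 1.68 ± 0.39 (adjusted p = 0.0077). EGR1 (0.94 ± 0.38, adjusted p = 0.0553) and IER5 (0.87 ± 0.43, adjusted p = 0.106) did not pass. These calls depended in part on the scale, though the 5 values stayed above 0 under every rescaling. IER2 and KLF10 passed with median of ratios and with the same total, KLF6 with neither, and no member with the same mitochondrial sum. On these 3 scales the median gene was at 0, 0.02 and 0.08. Of 13811 genes, 479, 517 and 120 were then called higher and 383, 330 and 21 lower, against 5788 and 26 with spike-ins. KLF6 also missed the threshold without the first treated NUP93-KO library, at 1.08 (adjusted p = 0.0708), and all 5 passed without the first treated EXOSC5-KO library, which enters this comparison only through the shared estimate of the spread.

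In EXOSC5-KO under triptolide, 2 of 5 members were higher than in NONT, where 39.4% of all genes differed in either direction and the median gene was higher by 0.65. IER2 was 9.09-fold higher as a ratio of means, with a log2 fold change of 3.03 ± 0.28 (SE, limma adjusted p = 9.95e-06), and only 66 of 13811 genes had a larger one. KLF10 was 2.42-fold higher, at 1.16 ± 0.29 (adjusted p = 0.00812), but without the first treated EXOSC5-KO library it was at 0.83 (adjusted p = 0.0919). EGR1 (0.61 ± 0.38, adjusted p = 0.189), KLF6 (0.44 ± 0.39, adjusted p = 0.356) and IER5 (−0.94 ± 0.43, adjusted p = 0.0875) did not pass.

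The 3 rescalings split these values the same way. IER2 remained higher, at 2.26 to 2.55, and passed in all 3. KLF10 no longer passed (0.38 to 0.64), EGR1 lay between −0.00 and 0.21, and KLF6 turned to between −0.31 and −0.08. IER5 then passed as lower, at −1.61, −1.52 and −1.55 (adjusted p = 0.0377, 0.0487 and 0.0455). The split was thus 0 lower and 2 higher on the spike-in scale against 1 lower and 1 higher on each of the others. Over all 13811 genes it was 27 lower and 5417 higher with spike-ins. On the other scales, in the same order, it was 1088 and 919, 586 and 1230, and 536 and 227, so a lower call there was not particular to IER5. The median gene was at −0.0003, 0.09 and −0.16 on those scales, against 0.65 with spike-ins. Values there are thus closer to a change relative to other genes. Without the second treated EXOSC5-KO library, the one with IER5 at 0.823, IER5 was at −0.12 (adjusted p = 0.83), and without the first it was at −1.76 (adjusted p = 0.011).

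**Figure D4:**
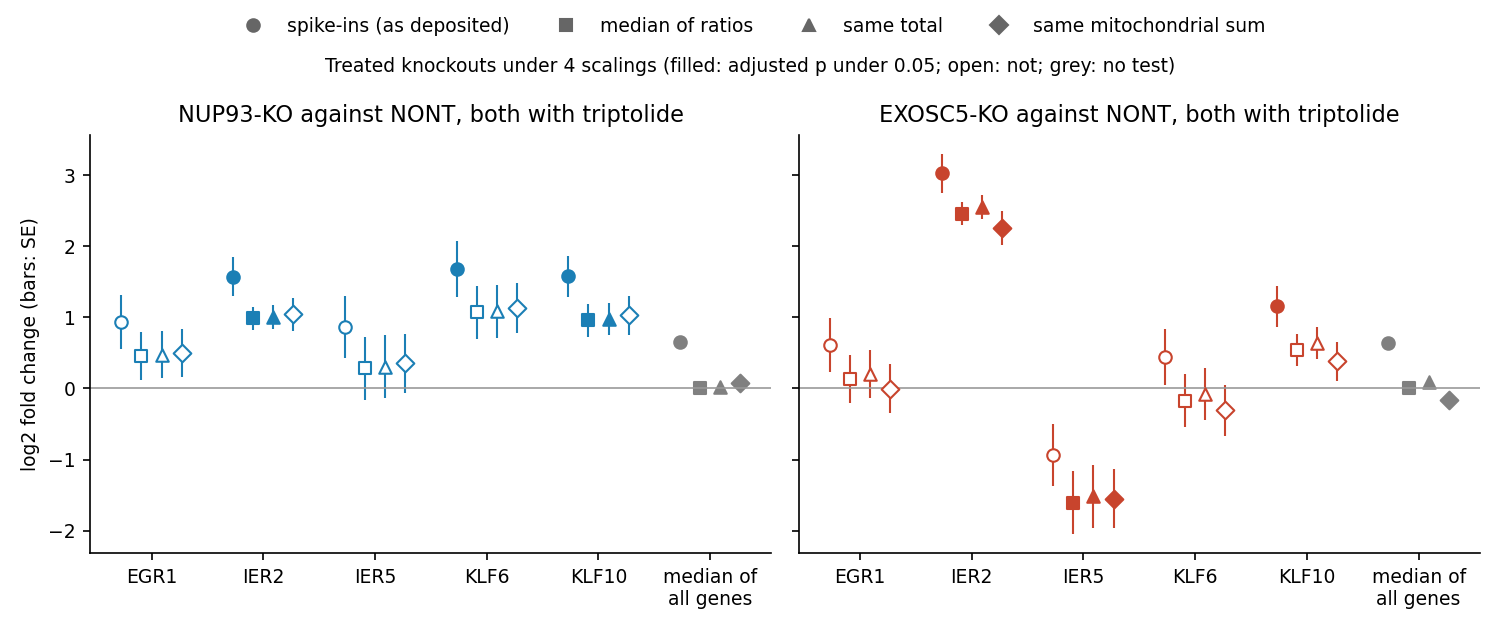
Log2 fold change of treated NUP93-KO (left) and treated EXOSC5-KO (right) over treated NONT for each tested member under 4 scalings, with SE; filled symbols have an adjusted p under 0.05, and grey symbols are the median of all genes tested. IER2 in EXOSC5-KO stays filled, between 2.26 and 3.03, while KLF10 loses its fill on the other scales and KLF6 turns below 0.

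Whether the response itself differed was tested as an interaction of genotype and drug. For EXOSC5-KO minus NONT, 1 of 5 members passed, where 0.333% of all genes did: IER2, with a difference in log2 fold change of 2.60 ± 0.39 (SE; 95% interval 1.77 to 3.42, limma adjusted p = 0.00913). The median gene had a difference of 0.57. All 16 combinations of pairings gave IER2 a positive difference, from 1.91 to 3.28. The same held for KLF10 (0.27 to 1.69), while KLF6 was positive in 15, EGR1 in 4 and IER5 in 3. These combinations reuse the same libraries, and the share of all genes positive in all 16 was not computed. KLF10 was at 0.98 ± 0.41 (adjusted p = 0.193, or 1.23 with 0.034 without the first untreated NONT library), KLF6 at 0.65 ± 0.56 (adjusted p = 0.412), EGR1 at −0.29 ± 0.54 (interval −1.42 to 0.84, adjusted p = 0.699) and IER5 at −0.92 ± 0.61 (interval −2.21 to 0.37, adjusted p = 0.307).

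The IER2 difference passed under 18 of 21 alternatives. It held its size but not its call without the second untreated NONT library (2.37, adjusted p = 0.169), without the second untreated EXOSC5-KO library (2.53, adjusted p = 0.0675) and with eBayes without a mean-variance trend (2.60, adjusted p = 0.063). Over all 21 alternatives the value ran from 2.06 to 2.89 and the adjusted p from 0.00154 to 0.169.

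**Figure D5:**
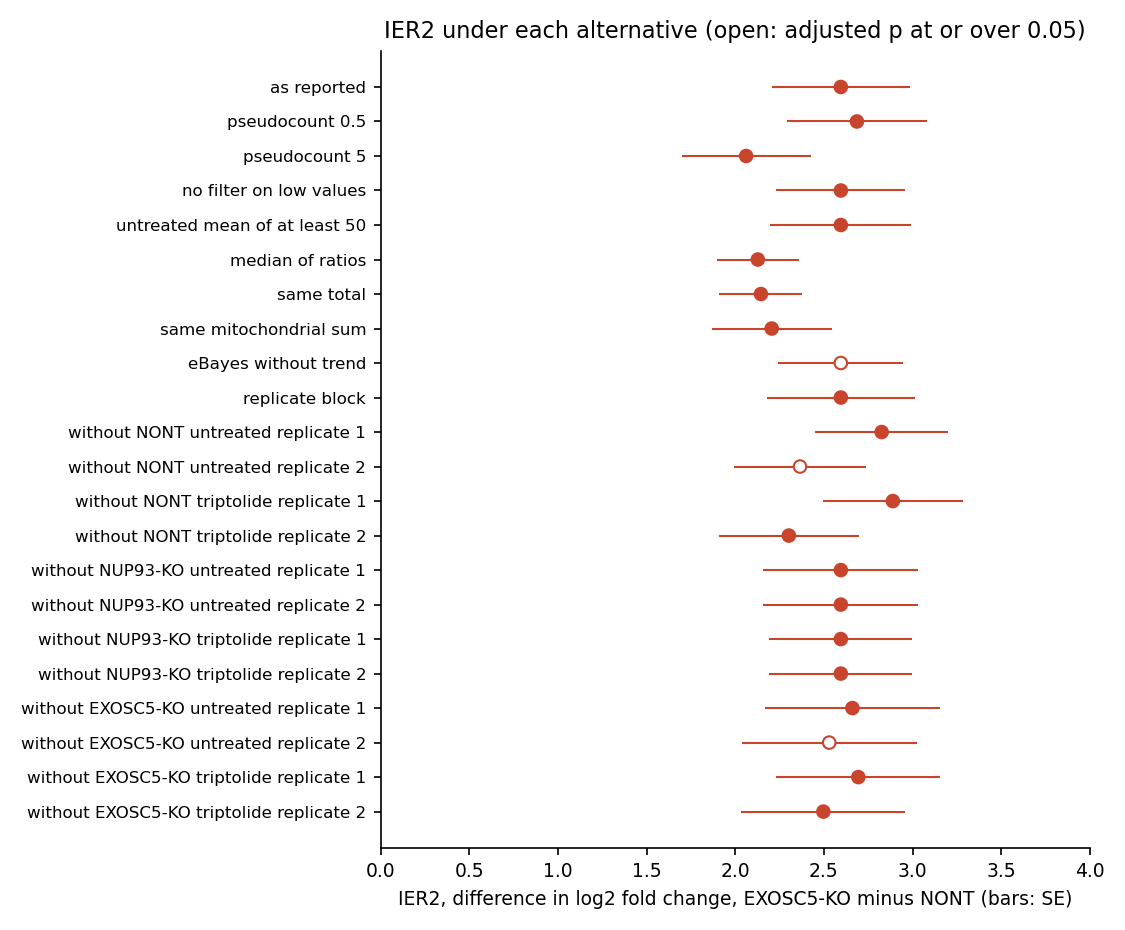
Difference in the IER2 log2 fold change between EXOSC5-KO and NONT, with SE, as reported and under 21 alternatives; open circles have an adjusted p of 0.05 or more. Every value lies between 2.06 and 2.89, and 3 are open.

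For NUP93-KO minus NONT, 0 of 5 members passed in limma, where 0.775% of all genes did, and 3 had an unadjusted p under 0.05. These were IER2 at 1.61 ± 0.39 (SE; 95% interval 0.78 to 2.43, adjusted p = 0.057), KLF10 at 1.67 ± 0.41 (interval 0.81 to 2.53, adjusted p = 0.057) and KLF6 at 1.71 ± 0.56 (interval 0.53 to 2.88, adjusted p = 0.0695), each positive in all 16 combinations of pairings and set against 0.74 for the median gene. IER5 was at 0.98 ± 0.61 (interval −0.31 to 2.27) and EGR1 at 0.36 ± 0.54 (interval −0.78 to 1.49). IER5 was also positive in all 16 combinations and EGR1 in 13, so that count does not set the 3 apart from IER5. The calls near the threshold moved with single NONT libraries: IER2, KLF10 and KLF6 passed without the first untreated NONT library, and IER2 and KLF10 without the first treated one. IER2 and KLF10 also passed when only genes with an untreated mean of at least 50 were tested. Their values did not change with that filter. The calls over all genes rose to 1051 higher and 5 lower of 11667, against 105 and 2 of 13811 with a mean of at least 10. The other 18 alternatives left none of the 3 past the threshold. The 3 rescalings lowered IER2 to between 0.93 and 1.01, KLF10 to between 0.96 and 1.05 and KLF6 to between 1.01 and 1.10, with adjusted p from 0.275 to 0.908, and without the first untreated NUP93-KO library the adjusted p were 0.215, 0.215 and 0.229.

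Between the knockouts, 0 of 5 members differed in response in limma (0.0217% of all genes did), with 2 at an unadjusted p under 0.05. For EXOSC5-KO minus NUP93-KO, IER2 had a value of 0.99 ± 0.39 (SE; 95% interval 0.16 to 1.81, adjusted p = 0.984), and IER5 one of −1.90 ± 0.61 (interval −3.19 to −0.61, adjusted p = 0.894), with opposite signs in all 16 combinations of pairings. Without the first treated EXOSC5-KO library IER5 was at −2.72 and passed (adjusted p = 0.0369). EGR1, KLF6 and KLF10 lay between −1.06 and −0.65.

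The 4 members under the filter were near the limit of these libraries. EGR2 (ENSG00000122877) held 4.69 and 7.19 in untreated NONT libraries, against 12.2 and 3.41 for untreated NUP93-KO and 12.7 and 5.96 for untreated EXOSC5-KO, and after triptolide it was listed at 0 in 5 of 6 libraries and at 2.00 in 1 NONT library. No treated EGR2 value overlapped an untreated one. In a fit of all 19002 genes without the filter, EGR2 was lower in NONT (−1.98, limma adjusted p = 0.0249), NUP93-KO (−2.93, 0.00499) and EXOSC5-KO (−3.29, 0.00206), calls made for 66.2%, 39.1% and 45.7% of those genes.

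KLF4 (ENSG00000136826), a pluripotency factor, was at most 3.11 in any library and listed at 0 in 5 of 12. It was lower after triptolide in NONT in the unfiltered fit (−1.70, limma adjusted p = 0.0452), a call made for 66.2% of the 19002 genes. That call rests on few reads, with 2.21 and 3.11 untreated against 0 and 0.244 treated. In the knockouts KLF4 values overlapped between treated and untreated libraries. EGR3 (ENSG00000179388) ranged from 1.15 to 22.7 untreated and from 0.318 to 13.1 treated, overlapped in every genotype, and did not pass in any (adjusted p = 0.879, 0.71 and 0.347). IER3 (ENSG00000137331, chromosome 6, 30743199 to 30744548) was listed at 0 in 10 of 12 libraries, all untreated ones included, with 3.61 in 1 treated NONT and 11.5 in 1 treated EXOSC5-KO library. Its row is uncertain, because it lies in a region for which the annotation used for counting can hold near-identical copies, among which kallisto divides reads, so a 0 here need not mean that the transcript was missing.

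Relatives of the members had smaller falls at the median. Of 19 other EGR, IER and KLF genes and the EGR partners NAB1 and NAB2, 14 were tested, of which 14, 13 and 13 fell in NONT, NUP93-KO and EXOSC5-KO, with median log2 fold changes of −3.26, −2.85 and −2.69. Such a fall was called for 90.0%, 55.1% and 64.3% of all genes tested. The largest falls in NONT were those of KLF2 (−6.95 ± 0.63, SE), KLF9 (−6.63 ± 0.46) and KLF5 (−6.58 ± 0.34), and the smallest those of NAB1 (−1.21 ± 0.22), KLF13 (−1.77 ± 0.30) and KLF7 (−2.12 ± 0.50), all with a limma adjusted p of 0.000965 or lower. Under triptolide 4 relatives were higher in NUP93-KO than in NONT (NAB1, KLF5, KLF9 and KLF16) and 5 in EXOSC5-KO (IER5L, NAB1, KLF9, KLF12 and KLF16), KLF12 and KLF16 being named after their values were seen. Of all genes tested, 42.1% and 39.4% differed in these comparisons in either direction. In the test of the response itself 1 of 14 passed for EXOSC5-KO minus NONT, where 0.333% of all genes did, and 0 for NUP93-KO minus NONT, where 0.775% did. That 1 was IER5L, a paralog of IER5 named here after its values were seen, at 3.48 ± 0.62 (limma adjusted p = 0.0372): it was 3.01 and 3.42 in treated NONT, 7.86 and 1.99 in treated NUP93-KO and 69.3 and 69.2 in treated EXOSC5-KO.

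Other immediate early genes had median falls between those of the members and their relatives. Of 28 listed, 26 were tested, of which 26, 25 and 26 fell in the same order of genotypes, with medians of −5.62, −4.82 and −4.93. Such a fall was called for 90.0%, 55.1% and 64.3% of all genes tested. The largest falls in NONT were those of DUSP1, a MAP kinase phosphatase (−9.21 ± 0.43, SE), JUN, an AP-1 subunit listed at 0 in both treated NONT libraries after 337 and 493 untreated, and RHOB, a small GTPase (−7.92 ± 0.34). The smallest were those of the orphan nuclear receptors NR4A1 (−2.17 ± 0.34) and NR4A3 (−2.20 ± 0.48) and of FOSB (−2.83 ± 0.90), with limma adjusted p of 0.00756 or lower. Under triptolide 14 were higher in NUP93-KO than in NONT and 15 in EXOSC5-KO, and none lower. Of all genes tested, 42.1% and 39.4% differed in these comparisons, with 5788 and 5417 genes higher and 26 and 27 lower. In NUP93-KO the response differed from NONT for 2 of 26, where 0.775% of all genes did: CCN1 (2.76 ± 0.35, limma adjusted p = 0.00685) and CCN2 (1.38 ± 0.29, adjusted p = 0.0446). In EXOSC5-KO it differed for 1, where 0.333% of all genes did: ZFP36L1, which encodes a protein that binds AU-rich elements (1.39 ± 0.28, adjusted p = 0.048). For EXOSC5-KO minus NUP93-KO, where 0.0217% of all genes passed, 1 did, CCN1 (−2.27 ± 0.35, adjusted p = 0.0287). These 3 genes are named after their values were seen.

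The mRNAs of the factors upstream of the members fell about as far as the typical gene. All 19 listed kinases, SRF partners and CREB coactivators were tested, of which 19, 13 and 16 fell, with medians of −1.58, −1.03 and −1.11. Such a fall was called for 90.0%, 55.1% and 64.3% of all genes tested. The largest falls in NONT were those of the acetyltransferases EP300 (−4.59 ± 0.37, SE) and CREBBP (−4.46 ± 0.30) and of the SRF coactivator MRTFA (−4.44 ± 0.28). The smallest were those of the kinase MAPK3 (−0.62 ± 0.26) and the SRF partners ELK3 (−0.97 ± 0.18) and ELK1 (−1.06 ± 0.18), with limma adjusted p of 0.0304 or lower. Under triptolide 11 were higher in NUP93-KO than in NONT and 10 in EXOSC5-KO, where 42.1% and 39.4% of all genes differed in either direction. No response differed from that of NONT at the threshold.

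Over the 12 libraries, the genes whose profile was most like the mean standardised profile of the 5 members, among 10376 with an untreated mean of at least 100, were SOX4, a transcription factor, ZFAND5, a zinc finger protein, and BAHD1, a heterochromatin protein, each with Pearson r = 0.999. The libraries share the contrast of drug and no drug, and the median gene had r = 0.912, so such values are a description only. SOX4 went from 513 to 782 normalised counts in untreated libraries to 16.6 to 34.1 in treated ones.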

How the data were processed

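RNA of the 12 libraries was sequenced as paired ends after poly(A) selection. The authors pseudoaligned reads with kallisto 0.46.1 to GRCh38 cDNA and ERCC sequences, used tximport to reach gene level, scaled each library by a DESeq2 size factor taken from 92 ERCC RNAs, and restricted the table to protein-coding genes. The deposited values are thus a length-corrected, spike-in normalised signal and not raw counts. Errors in cell number or spike-in volume move every gene of a library together. Only 29.8% to 35.9% of low values were whole multiples of 1 read (tolerance 0.05), so no count test was used.

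Values were analysed as log2(value + 1), which understates changes of low genes. A model of 6 group means was fitted to 13811 genes with an untreated mean of at least 10 using limma 3.58.1 in R 4.3.3 (eBayes with trend; two-sided; Benjamini-Hochberg adjustment; threshold 0.05) and tested on simulated data. Replicates are labelled only by number. Whether they are separate cultures is not given in the sources used here, so p-values measure the spread between these samples, and counting error adds to it at low values. With 2 libraries a group, an exact permutation test cannot go below p = 0.333. Same-numbered libraries did not deviate together (r −0.05 to 0.04 over 15 pairs of groups). Members, gene lists and tests were chosen with earlier results of these data known. The rule for named genes took the 9 members, both targeted genes, up to 3 genes of each list with the largest and the smallest fall in NONT, and the 3 most similar profiles. Outside it, cell type markers were named as a check, and IER5L, KLF12, KLF16, CCN1, CCN2 and ZFP36L1 after their values were seen. Gene symbols, coordinates and 3′UTRs came from GENCODE release 44 (19584 of 22379 IDs matched) and promoters from RefSeq. Figures were made with matplotlib 3.10.9 in Python 3.11.15 with pandas 2.3.3 and NumPy 2.4.6.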

Additional observations from a re-analysis of the deposited data

Results flagged for a closer look

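One result was set apart because the response to triptolide differed between genotypes by a test of the difference itself. IER2 fell less in EXOSC5-KO than in NONT, by 2.60 ± 0.39 (SE) on the log2 scale (limma adjusted p = 0.00913, 2 libraries a group), with treated values of 55.7 and 64.0 against 8.11 and 5.07 normalised counts. The difference was positive in all 16 combinations of pairings, as was that of KLF10, which did not pass.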

How the results depend on the processing

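Under 21 alternatives (other pseudocounts, filters and scalings, no trend, a replicate block, and each of 12 libraries left out), the triptolide falls of the 5 members were called every time. The member median minus the all-gene median moved with pseudocount 5 (−4.87 in NONT, −4.73 in NUP93-KO) and with no filter, which adds the 4 low members (−4.49, −3.40 and −3.99 for NONT, NUP93-KO and EXOSC5-KO). Leaving out single libraries gave −5.83 to −5.51, −4.93 to −4.88 and −5.09 to −4.43. The number of members called in treated NUP93-KO against NONT was 0 with the same mitochondrial sum and 2 to 5 without single libraries. For the difference in response of NUP93-KO it was 2 with an untreated mean of at least 50 and 0 to 3 without single libraries. For that of EXOSC5-KO it was 0 without the trend and 0 to 2 without single libraries, and between the knockouts it was 0 to 1. The cause of these moves was not tested, except that the stricter filter tests fewer genes. With it the NUP93-KO difference was called as higher for 1051 of 11667 genes, against 105 of 13811 with a mean of at least 10.

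Of the single-member values under these alternatives, 991 kept direction and side of the threshold, 13 lost the call, 20 gained it and 26 changed sign, none of the last among called values. Sign changes in untreated NUP93-KO against NONT were IER2 at 0.033 and KLF6 at 0.039 (median of ratios), IER2 at 0.077, KLF6 at 0.083 and KLF10 at 0.024 (same total), and IER2 at 0.031 and KLF6 at 0.037 (same mitochondrial sum). Without single libraries these ran from −0.27 to 0.19 for IER2, −0.41 to 0.18 for IER5, −0.38 to 0.32 for KLF6 and −0.34 to 0.16 for KLF10. In untreated EXOSC5-KO, KLF10 was at −0.19 with the same mitochondrial sum, and without single libraries IER5 ran from −0.31 to 0.27, KLF6 from −0.56 to 0.15 and KLF10 from −0.071 to 0.43. In treated EXOSC5-KO, KLF6 was at −0.17, −0.078 and −0.31 under the 3 scalings in that order, and EGR1 at −0.0034 under the last. The EGR1 difference for NUP93-KO was −0.089 with pseudocount 5 and −0.19, −0.22 and −0.15 under the scalings, and that for EXOSC5-KO ran from −0.61 to 0.030 without single libraries.

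Libraries of the same replicate number did not deviate together (r −0.05 to 0.04 over 15 pairs of groups, 0 above 0.1). This does not tell whether they share a culture or a day, which is not given in the sources used here. With the replicate block, IER2 for EXOSC5-KO minus NONT stayed at 2.60 (adjusted p = 0.0158), and no count of called members changed. Depth limits the treated values most: at 0.488 to 1.75 normalised counts a read, treated EGR1 and IER5 rest on few reads.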

Other observations

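Ratios of members within a library do not depend on how the library is scaled, and they were computed after the values were seen. IER2 over KLF10 was between 1.02 and 1.40 in all 6 untreated libraries. After triptolide it was 0.817 and 0.498 in NONT, whereas NUP93-KO gave 0.680 and 0.637, and EXOSC5-KO 1.86 and 3.43, so that the ratio lay lower with the drug in NONT and NUP93-KO and higher in EXOSC5-KO. IER2 over EGR1 was 19.8 and 13.0 in treated EXOSC5-KO and between 2.07 and 5.37 in the other treated libraries, against 1.54 to 2.40 untreated. IER2 over IER5 was 11.9 and 77.7 in treated EXOSC5-KO, the latter with IER5 at about 1 read, and between 1.15 and 2.38 in the other treated libraries.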
